A study of Mus musculus with 30 samples.

Results

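Hearts of mice infused with angiotensin II for 7 days were compared with hearts of mice at day 0, before any angiotensin II, across all genes measured. The comparison used 6 of the 30 arrays of the series, 3 per group. The members are the 3 arrays labelled as heart at day 7 and the 3 labelled as heart at day 0. The other 6 heart arrays, 3 each at day 1 and day 3, entered the model and show the course that led to day 7. All animals were male C57BL/6 mice of 8 to 10 weeks. At days 1, 3 and 7 they carried an osmotic pump under which 1500 ng of angiotensin II per kg per min was delivered in Ringer's solution. The labels do not say whether day 0 animals carried a pump, so effects of the pump and of the peptide cannot be told apart. RNA came from the heart, with no chamber named, and the labels call the 3 arrays of a group biological replicates without tying each to 1 animal. P-values therefore measure the spread between these samples.

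Angiotensin II is the effector peptide of the renin-angiotensin system. It constricts vessels through its type 1 receptor, raises blood pressure, and in the heart it acts on muscle cells and fibroblasts. Ventricular muscle under a raised load is known to switch on genes of the fetal heart, such as the slow myosin heavy chain and skeletal actin, and fibroblasts are known to lay down collagen and other matrix.

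Values are linear intensities from Affymetrix Mouse Genome 430 2.0 arrays. Array medians lay between 36.0 and 37.8 on the 12 heart arrays, and the heart arrays correlated with each other at 0.9533 to 0.9947 on the log scale. The number of arrays limits the precision. Changes are differences of log2(intensity + 16), which understates changes of dim genes. The value after ± is the standard error of the limma model whose adjusted p is given first beside it. Genes were tested where 3 or more heart arrays showed the probe set above the 40th percentile of that array's values, which left 14040 of 18193 genes. P-values were adjusted by the Benjamini-Hochberg method over all 14040. The 16 heart muscle markers were all bright enough to be tested, and their median change at day 7 was 0.01.

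After 7 days, 6 genes had risen (0.0427%) and 1 had fallen (0.00712%) at an adjusted p under 0.05 in the model of all 12 heart arrays, 0.0499% of the genes tested. They were 4 genes of the contractile apparatus or its stress response (Myh7, Acta1, Ankrd1 and Mybpc2), the matrix gene Cilp, the FOXO-responsive gene Depp1 and, falling, the membrane protein gene Ano10. At an unadjusted p under 0.05 there were 1247 genes (8.88%), 504 higher and 743 lower. The median change over all genes was -0.02. In a fit of the 6 day 0 and day 7 arrays, with days 1 and 3 left out, 173 genes passed (1.23%): 129 rose (0.919%) and 44 fell (0.313%). The typical standard error was 0.098 in that smaller model and 0.121 in the 12-array model, where arrays of days 1 and 3 contribute to the estimate of spread. Omitting replicate 3 of day 1 turned the count of 7 into 23, and omitting replicate 1 of day 3 turned it into 12. The count of 173 became 52 or 35 on omitting replicate 1 or 2 of day 0. Omitting replicates 1, 2 and 3 of day 7 gave 359, 38 and 86. Of the 173 genes, 25 that rose and 4 that fell passed with each of the 6 arrays left out in turn.

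**Figure D1:**
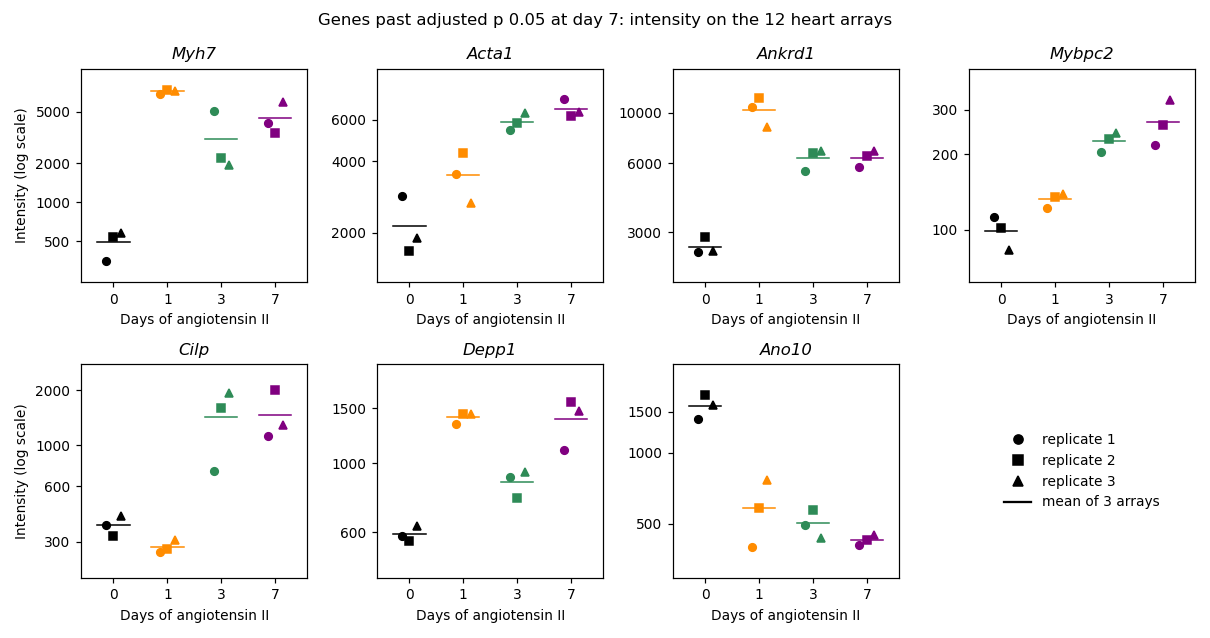
Intensity (log axis) of the 7 genes past adjusted p 0.05 at day 7, on each of the 12 heart arrays, by days of angiotensin II; marker shapes are replicates and bars are means of 3 arrays. For all 7 genes, the day 7 points lie apart from the day 0 points. At day 1 the Myh7, Ankrd1, Mybpc2 and Depp1 points lie above day 0, those of Acta1 overlap it, and the Ano10 and Cilp points lie below it, Cilp by 0.36 on the log2 scale.

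Myh7 encodes the slow, beta form of the cardiac myosin heavy chain, the motor of the fetal mouse ventricle. It read 353, 540 and 578 on the day 0 arrays and 4094, 3424 and 5933 on the day 7 arrays. The groups were far apart: even the lowest day 7 heart exceeded the highest day 0 heart severalfold. The change was 3.14 ± 0.31 (8.84-fold; adjusted p = 0.0011), the largest among the 7. At day 1 the 3 hearts had read 6897, 7441 and 7270, so the level at a week was below that peak in every heart, but the difference between day 7 and day 1 was not past the threshold (-0.72; adjusted p = 0.19). Myh6, the alpha myosin heavy chain of the adult mouse ventricle, read 14177, 15525 and 14793 at day 0 and 14971, 15264 and 15398 at day 7. These groups overlapped, and the change was 0.04 ± 0.09 (adjusted p = 0.94). A dimmer second Myh6 probe set changed by -0.17, and its day 7 arrays also overlapped day 0. At days 1 and 3 the dimmer one gave -0.42 and -0.36, where the one used, at a mean of 14717, gave -0.05 and -0.04. Whether the brighter one is limited near the top of the scale was not tested.

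Acta1 encodes skeletal alpha actin, another fetal isoform of the heart. Its intensities were 2865, 1667 and 1888 at day 0 and 7326, 6227 and 6472 at day 7. All 3 day 7 hearts were above all day 0 hearts, and the first day 0 heart was the highest of its group. The rise was 1.67 ± 0.20 (3.18-fold; adjusted p = 0.0027). Unlike Myh7, Acta1 was higher at day 7 than at day 1 (difference 0.95; adjusted p = 0.022). Ankrd1 encodes a stretch-responsive protein of the sarcomere and nucleus. It read 2460, 2847 and 2479 at day 0 and 5786, 6430 and 6790 at day 7, a rise of 1.28 ± 0.12 (2.43-fold; adjusted p = 0.0011) with little spread in either group. Its level had come down from day 1, when it read 10560, 11523 and 8643 (day 7 minus day 1, -0.68; adjusted p = 0.015). A second Ankrd1 probe set gave a change of 1.52. Mybpc2 encodes the fast skeletal form of myosin-binding protein C. It was dim at day 0, at 112, 102 and 83, and read 217, 260 and 327 at day 7. The rise was 1.30 ± 0.14 (2.46-fold; adjusted p = 0.0012), and most of it came after day 1 (day 7 minus day 1, 0.92; adjusted p = 0.0075).

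Acta1 and Mybpc2 are also genes of skeletal muscle, so the markers of that tissue are given beside them. Of 24 skeletal muscle markers, 13 were bright enough to be tested, and their median change was -0.04. The summed intensity of all 24 ranged from 14563 to 17689 on the day 0 arrays and from 17295 to 18703 on the day 7 arrays. Defining markers were near the bottom of the scale on all 12 heart arrays: the fast myosin genes Myh1 and Myh4 lay between 15.8 and 21.7 and between 14.9 and 23.3, the myogenic factor Myod1 between 14.8 and 23.4. Besides Mybpc2, Myl1 rose with the 6 arrays alone, which makes 2 of the 13 (15.4%, beside 0.919% of all genes). Myl1 encodes an essential myosin light chain of fast muscle. It read 2337, 1630 and 1415 at day 0 and 3031, 4464 and 4028 at day 7 (1.11; adjusted p = 0.021 with the 6 arrays, 0.38 with 12).

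The sequences upstream of these 4 muscle genes are shown because they carry letters of a motif long studied in muscle promoters. Each run is the 250 bases before the RefSeq start of the gene on GRCm38.p6, written 5′ to 3′ along the gene's strand, with matches in capitals. Capitals mark CATTCC, the core of the M-CAT element, on either strand (GGAATG when read from the other strand), and, in Acta1, also TATAAA and the CArG box, the site of serum response factor.
Myh7, chr14:54994627-54994876, minus strand: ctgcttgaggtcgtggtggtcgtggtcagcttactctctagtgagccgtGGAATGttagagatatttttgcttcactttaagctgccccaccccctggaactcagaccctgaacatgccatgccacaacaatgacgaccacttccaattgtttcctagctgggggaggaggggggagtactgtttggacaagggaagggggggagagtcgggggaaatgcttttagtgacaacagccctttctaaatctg
Acta1, chr8:123894776-123895025, minus strand: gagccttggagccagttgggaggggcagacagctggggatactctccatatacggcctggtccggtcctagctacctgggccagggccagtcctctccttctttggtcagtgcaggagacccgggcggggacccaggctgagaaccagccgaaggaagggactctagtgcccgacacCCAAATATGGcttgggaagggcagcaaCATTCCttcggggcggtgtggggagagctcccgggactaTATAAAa
Ankrd1, chr19:36119845-36120094, minus strand: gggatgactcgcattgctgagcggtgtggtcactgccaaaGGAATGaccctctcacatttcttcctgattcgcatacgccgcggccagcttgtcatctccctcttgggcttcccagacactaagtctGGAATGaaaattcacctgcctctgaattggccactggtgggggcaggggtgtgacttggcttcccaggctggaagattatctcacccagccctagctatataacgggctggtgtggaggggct
Mybpc2, chr7:44524670-44524919, minus strand: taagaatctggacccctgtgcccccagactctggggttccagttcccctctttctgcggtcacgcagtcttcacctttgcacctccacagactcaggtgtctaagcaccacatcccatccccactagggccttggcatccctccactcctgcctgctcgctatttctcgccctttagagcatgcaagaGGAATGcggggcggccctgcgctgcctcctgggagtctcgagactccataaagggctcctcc
Of the 32851 windows of this length in the RefSeq table, 12.6% held CATTCC on either strand, 12.4% held TATAAA and 1.47% held a CArG box. No match was found for Cilp, Depp1 or Ano10 in their windows to these 3 motifs, to TGANTCA, the AP-1 motif (6.75% of windows), to GTAAACA, a forkhead motif (3.17%), or to the MEF2 site (0.508%). A second annotated start of Myh7 had no match in its window. The window of Nppb, the B-type natriuretic peptide gene, was also searched and held CATTCC and TATAAA. A match is a run of letters and does not show that a factor binds there.

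Cilp, the cartilage intermediate layer protein, is a secreted matrix protein made by cardiac fibroblasts. It read 368, 322 and 412 at day 0 and 1126, 1991 and 1287 at day 7, with no overlap. The rise was 1.91 ± 0.29 (3.77-fold; adjusted p = 0.039). At day 1 it was 264, 274 and 308, below all day 0 arrays (-0.36; adjusted p = 0.48), and day 7 minus day 1 was 2.28 (adjusted p = 0.0046). The Cilp call was lost in 14 of 23 alternative settings, that of Depp1 in 1, and those of the other 5 genes in none. Leaving out any single day 0 or day 7 array, day 1 replicate 1 or 2, or day 3 replicate 2 ended the Cilp call, with an adjusted p of up to 0.27. With the 6 arrays alone its adjusted p was 0.0013, and it passed there with each array left out.

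Depp1 is a regulator of autophagy named for its response to progesterone and is known as a FOXO target. It read 582, 563 and 626 at day 0 and 1100, 1578 and 1467 at day 7. The rise was 1.19 ± 0.13 (2.28-fold; adjusted p = 0.0012), and a second probe set gave 1.19 as well. Its course was not steady: the mean intensity was 1404 at day 1, 870 at day 3 and 1382 at day 7. Day 3 lay below day 7 in every heart, although day 7 minus day 3 was not past the threshold (0.65; adjusted p = 0.61). Ano10 encodes a member of the anoctamin family of membrane proteins. Its intensities were 1394, 1766 and 1595 at day 0 and 404, 424 and 448 at day 7, with little spread at day 7. It fell by 1.85 ± 0.19 (adjusted p = 0.0011). The fall was present at day 1 (-1.46) and day 3 (-1.63), measured against the same day 0 arrays.

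Between adjusted p 0.05 and 0.10 lay 2 genes. Tmprss13, a membrane serine protease gene, read 91.5, 104 and 73.7 at day 0 and 49.3, 30.3 and 21.6 at day 7 (-1.12 ± 0.19; adjusted p = 0.079). Slc7a1, a transporter of arginine and other cationic amino acids, read 1069, 1082 and 1022 at day 0 and 790, 683 and 641 at day 7 (-0.58 ± 0.10; adjusted p = 0.097). Both groups were apart for both genes, with the day 7 hearts lower.

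Natriuretic peptides are secreted by stretched heart muscle and lower blood pressure. Nppb, the B-type peptide, read 2907, 4375 and 4098 at day 0 and 7271, 9338 and 7517 at day 7. Its change of 1.09 passed with the 6 arrays (± 0.15, adjusted p = 0.0091) but not with 12 (± 0.20, adjusted p = 0.12). Nppa, the atrial peptide, read 11397, 12606 and 9476 at day 0 and 14819, 15771 and 15738 at day 7. The groups did not overlap, but the change of 0.48 ± 0.14 passed in neither model (adjusted p = 0.41 and 0.067). Over the list of cardiac stress and fetal genes, 4 of 30 tested rose in the 12-array model, beside 0.0427% of all genes. They were Myh7, Acta1, Ankrd1 and Mybpc2, and none of the list fell. With the 6 arrays 8 rose (26.7%, beside 0.919% of all genes), the others being Nppb, Ccn2, Synpo2l and Nmrk2. On 17 of the 30 the arrays did not overlap, 16 higher and 1 lower, against 21.2% of all genes, of which 9.28% were higher and 11.9% lower. The median of the list was 0.27 at day 7, 0.91 at day 1 and 0.38 at day 3.

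Genes of the adult contraction and conduction machinery had a median change of 0.01 over 31 tested. With the 6 arrays 2 fell (6.45%, beside 0.313% of all genes). Scn4b, a sodium channel subunit, read 162, 162 and 139 at day 0 and 115, 73.3 and 80.9 at day 7 (-0.71; adjusted p = 0.041). Kcnd2, a pore subunit of the transient outward potassium current, read 334, 389 and 344 at day 0 and 245, 229 and 208 at day 7 (-0.61; adjusted p = 0.017). Neither passed with 12 arrays (adjusted p = 0.21 and 0.48), and neither passed in the 6-array model with every array left out in turn.

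Matrix genes were held in 4 lists. Over the 4 together, 28 of 97 tested genes (28.9%) rose with the 6 arrays and none fell, beside 0.919% and 0.313% of all genes. Their median change was 0.40, and 58 of 97 lay higher than day 0 with no overlap and 1 lower, beside 9.28% and 11.9% of all genes. Only Cilp of these passed with 12 arrays. The lists were chosen with earlier results of these arrays known, so these counts are a description. In tissue RNA, more cells of a type and more RNA per cell cannot be told apart.

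**Figure D2:**
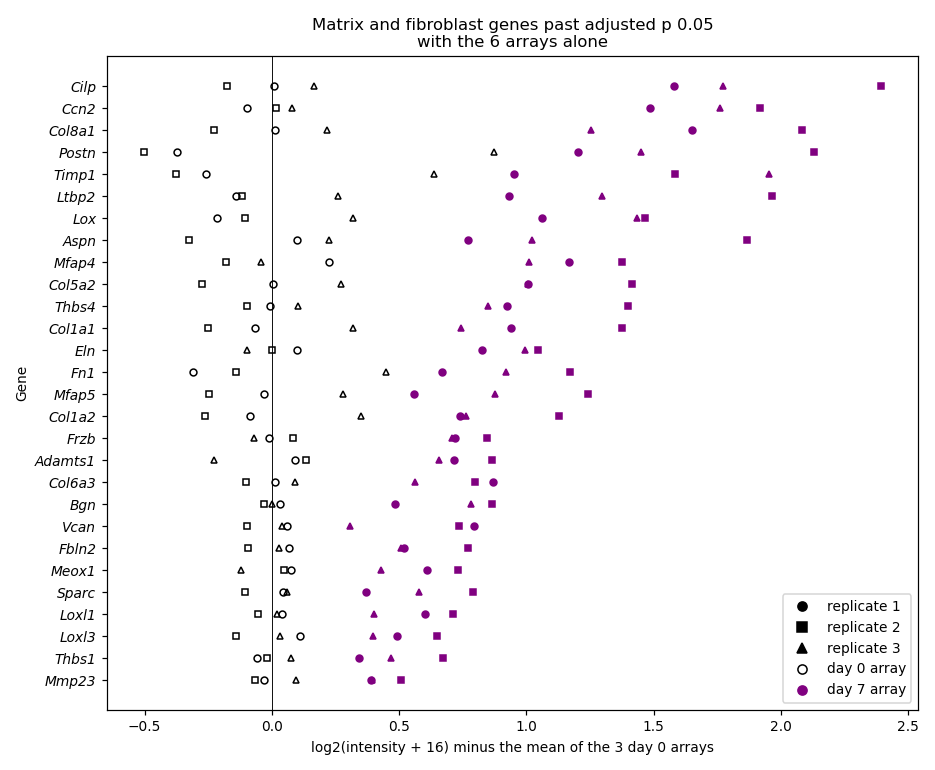
Each of the 28 matrix and fibroblast genes that passed with the 6 arrays alone, ordered by change: log2(intensity + 16) on each array minus the mean of the 3 day 0 arrays; open markers are day 0, filled markers day 7, shapes are replicates. The day 7 arrays lie above the day 0 arrays for every gene shown. The second day 7 array is the highest of its group for 25 of the 28, and the third day 0 array the highest of its group for 18.

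Of 31 collagen and collagen-processing genes, 8 rose with the 6 arrays (25.8%, beside 0.919% of all genes), and the list's median was 0.42. Col8a1, a short-chain collagen of vessels and remodelling tissue, read 496, 417 and 573 at day 0 and 1576, 2135 and 1193 at day 7 (1.66 ± 0.18 with the 6 arrays; adjusted p = 0.0031, 0.12 with 12). Lox, the lysyl oxidase that crosslinks collagen and elastin, read 122, 133 and 184 at day 0 and 318, 427 and 417 at day 7 (1.32 ± 0.15; adjusted p = 0.0033, 0.41 with 12). Col5a2 rose by 1.14 and Col1a1, a chain of the main fibrillar collagen, by 1.02. The others were Col1a2, Col6a3, Loxl1 and Loxl3. Col8a1, Lox and Col5a2 passed with each of the 6 arrays left out, and the other 5 did not.

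Of 38 matricellular and activated fibroblast genes, 15 rose with the 6 arrays (39.5%, beside 0.919% of all genes), with a list median of 0.54. Ccn2, connective tissue growth factor, read 897, 970 and 1016 at day 0 and 2714, 3671 and 3294 at day 7, a rise of 1.72 ± 0.11 (adjusted p = 6.1e-05, 0.12 with 12). Its groups were tight and well apart. Postn encodes periostin, a marker of activated fibroblasts. It read 627, 571 and 1509 at day 0 and 1901, 3627 and 2255 at day 7 (1.59 ± 0.33; adjusted p = 0.048, 0.33 with 12), and the third day 0 heart stood close to the lowest day 7 heart. Ltbp2, a microfibril protein, rose by 1.40 (adjusted p = 0.016). Ccn2, Cilp, Eln, Frzb, Mfap4 and Thbs4 passed with each of the 6 arrays left out, and the other 9 did not. Eln encodes elastin and Mfap4 a protein of elastic fibres, which changed by 0.96 and 1.19.

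Among 11 small leucine-rich proteoglycans, which bind collagen fibrils, Aspn (1.22; adjusted p = 0.044) and Bgn (0.71; adjusted p = 0.013) rose with the 6 arrays. They are 18.2% of the list, beside 0.919% of all genes. Timp1, an inhibitor of metalloproteinases, read 175, 160 and 339 at day 0 and 426, 669 and 870 at day 7 (1.50; adjusted p = 0.034). It had read 4206, 5808 and 1224 at day 1, and it was lower at day 7 than at day 1 (-2.28; adjusted p = 0.03). Adamts1 and Mmp23 were the other 2 of 17 metalloproteinase and Timp genes to rise (17.6% of the list with Timp1, beside 0.919% of all genes). Of 27 TGF beta family genes, 2 rose with the 6 arrays (7.41%, beside 0.919% of all genes), Gdf10 (0.51) and Ltbp3 (0.44). None of the calls in these 3 lists held with each of the 6 arrays left out: Aspn was lost in 5 of 7 alternatives of that model and Timp1 in 4. Of the remaining TGF beta genes, the ligand Tgfb1 differed by -0.04.

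Nox4, an NADPH oxidase that makes hydrogen peroxide, was dim at day 0 and separate at day 7. It read 44.8, 53.8 and 52.1 at day 0 and 149, 164 and 165 at day 7, a rise of 1.40 ± 0.09 (adjusted p = 6.1e-05 with the 6 arrays, 0.21 with 12). At day 3 its hearts ranged from 42.3 to 171, the spread that enters the 12-array model. It was above day 1 (1.63; adjusted p = 0.015). A dimmer Nox4 probe set gave 0.38, with the groups apart as well. No other gene of 19 oxidative stress genes passed, so 5.26% of that list rose with the 6 arrays, beside 0.919% of all genes.

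Immediate early genes, which respond to stimuli within minutes, had a median change of 0.28 over 28 tested. Of these 6 rose with the 6 arrays (21.4%, beside 0.919% of all genes) and none fell. Fos read 116, 136 and 147 at day 0 and 264, 322 and 483 at day 7 (1.28 ± 0.18; adjusted p = 0.0089, 0.21 with 12). Btg2, a brake on proliferation, rose by 0.95, Klf2, a flow-responsive factor, by 0.56 and Ier5 by 0.55. Dimmer Ier5 probe sets gave 0.06 and 0.09, with overlapping groups. Klf6 and Dusp1 were the remaining 2. All of them lost the threshold without at least 1 of the 6 arrays.

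Glucocorticoid-responsive genes had a median change of 0.33 over 25 tested. With the 6 arrays 5 rose (20.0%, beside 0.919% of all genes). Sgk1, a kinase that raises sodium transport, read 967, 974 and 983 at day 0 and 1511, 1548 and 1755 at day 7 (0.71 ± 0.09; adjusted p = 0.0058, 0.23 with 12). Cebpd, a transcription factor, rose by 1.04 and Tsc22d3, a mediator of glucocorticoid action, by 0.78. Dimmer Tsc22d3 probe sets gave 0.37, 0.35 and 0.01, with the groups apart only at 0.35. Per1 and Dusp1, which stand in other lists as well, rose by 0.47 each. The list shifted differently in the 3 hearts, by 0.12, 0.26 and 0.56. Sgk1 and Cebpd passed with each of the 6 arrays left out. Of 23 FOXO and atrophy genes, 3 rose with the 6 arrays (13%, beside 0.919% of all genes): Depp1, Irs2 (0.55) and Eif4ebp1 (0.56). Irs2 and Eif4ebp1 did not pass with 12 (adjusted p = 0.21 and 0.32), and both lost the threshold without at least 1 of the 6 arrays.

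**Figure D3:**
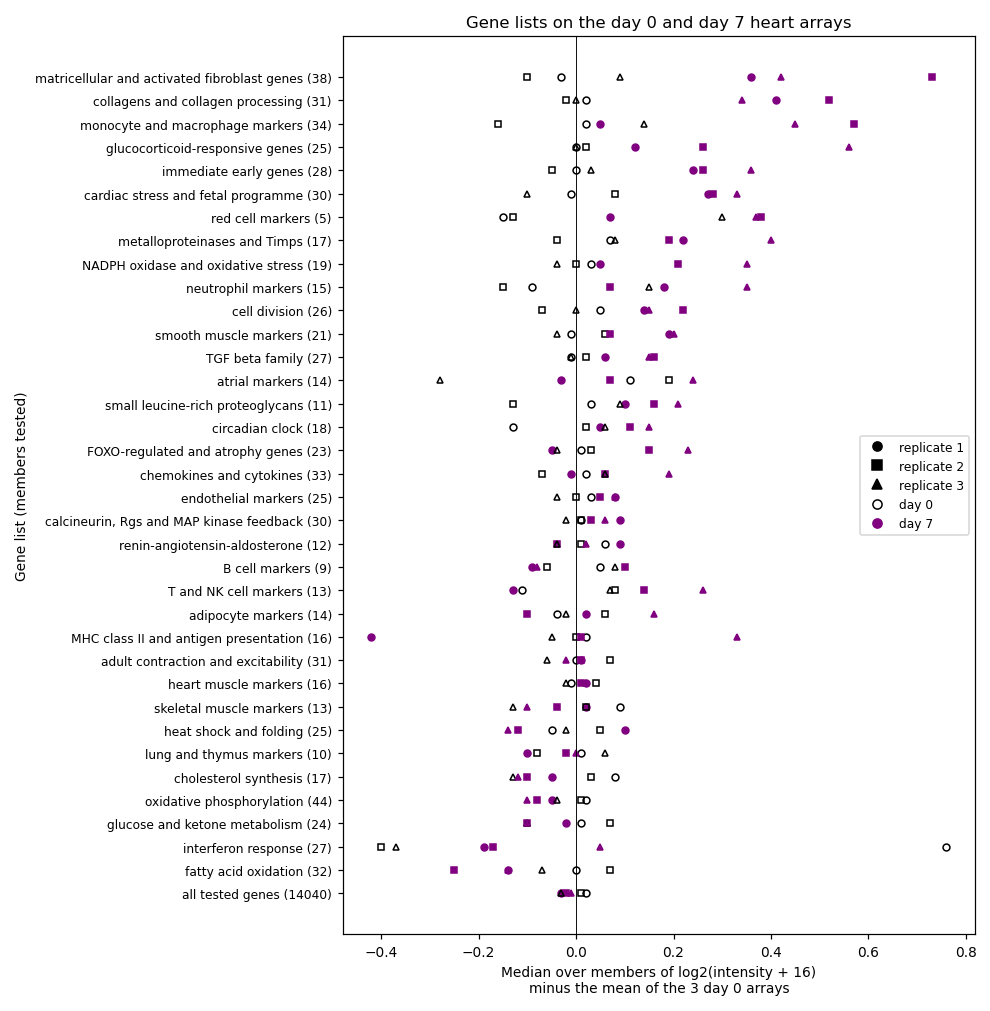
Median over the tested members of each of 35 gene lists, and over all tested genes, of log2(intensity + 16) minus the mean of the 3 day 0 arrays; open markers are day 0 arrays, filled markers day 7 arrays, shapes are replicates. The 2 matrix lists at the top reach 0.34 to 0.73 on the day 7 arrays, and fatty acid oxidation has the lowest median of the 35. The interferon list is set apart by the first day 0 array, at 0.76.

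Fatty acid oxidation, the main energy source of the adult heart, had a median change of -0.17 over 32 tested genes. Of these 25 were below 0 (21.9% above 0, beside 44.5% of all genes). On 17 the day 7 arrays lay below day 0 with no overlap, beside 11.9% of all genes. Only Ppara passed, falling with the 6 arrays (3.12% of the list, beside 0.313% of all genes). This nuclear receptor, which drives the genes of fat oxidation, read 660, 760 and 575 at day 0 and 452, 324 and 400 at day 7 (-0.74 ± 0.13; adjusted p = 0.032, 0.28 with 12). The call was lost without at least 1 of the 6 arrays. Oxidative phosphorylation genes had a median of -0.07 over 44, with 39 below 0 (11.4% above 0, beside 44.5% of all genes). On 19 of 44 the day 7 arrays lay lower with no overlap, beside 11.9% of all genes. None passed in either model, and their changes ranged from -0.23 to 0.07. Genes of glucose and ketone metabolism had a median of -0.08, and none of 24 passed.

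Other genes that fell with the 6 arrays were Cyp1a1 (-0.98), an enzyme that oxidises aromatic compounds, Ces1d (-0.87), a carboxylesterase of lipid metabolism, and Egflam (-0.79), a matrix protein of synapses and muscle. Ces1d read 670, 813 and 637 at day 0 and 343, 408 and 379 at day 7 (adjusted p = 0.0058). Egflam read 171, 173 and 158 at day 0 and 97.5, 83.0 and 89.6 at day 7 (adjusted p = 0.0031). Ttll1, a tubulin-modifying enzyme, read 3988, 4594 and 4114 at day 0 and 2636, 2717 and 2619 at day 7 (-0.67; adjusted p = 0.0075). Dimmer Ttll1 probe sets gave 0.06 and 0.03 with overlapping groups, and the mean of all its probe sets gave -0.19. Ano10, Ces1d, Egflam and Ttll1 were the 4 falling genes that passed in the 6-array model with each array left out. Tbc1d10c (-0.75), Ift81 (-0.66), Maob (-0.63), Cabcoco1 (-0.63), Cep128 (-0.61) and Ung (-0.60) also fell. Maob is the monoamine oxidase of the outer mitochondrial membrane, and Ung removes uracil from DNA.

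Cell division genes had a median change of 0.16 over 26 tested, and 4 rose with the 6 arrays (15.4%, beside 0.919% of all genes). Ccna2, a cyclin of S phase and mitosis, rose by 0.78, Mki67, the Ki-67 antigen, by 0.76, Top2a, a topoisomerase of dividing cells, by 0.68 and Cdk1 by 0.58. All were dim: Top2a read 35.1, 35.7 and 39.7 at day 0 and 71.2, 65.0 and 70.5 at day 7. Top2a passed with each of the 6 arrays left out, but dimmer Top2a probe sets gave 0.09 and 0.04, with overlapping groups. At day 3 the same list had a median of 0.76.

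Of 34 monocyte and macrophage markers, 3 rose with the 6 arrays, Ccr2, Lgals3 and Mpeg1 (8.82%, beside 0.919% of all genes), and the list's median was 0.34. All 3 lost the threshold without at least 1 of the 6 arrays. Ccr2 changed by 1.02 on the probe set used, and by 0.01, 0.43 and 0.12 on 3 dimmer ones whose groups overlapped. The list's median shift was 0.05, 0.57 and 0.45 in the 3 day 7 hearts. The summed intensity of the list ranged from 22289 to 28869 at day 0 and from 26459 to 38595 at day 7, so the groups overlapped. Mpeg1, a pore-forming protein of macrophages, read 318, 309 and 348 at day 0 and 413, 690 and 660 at day 7 (0.79; adjusted p = 0.048). Of 15 neutrophil markers, Clec4d rose with the 6 arrays (0.94, adjusted p = 0.04), 6.67% of the list beside 0.919% of all genes. The sum of the neutrophil list was 746 to 1937 at day 0 and 1071 to 2365 at day 7. No gene passed among 13 T and NK cell markers, 9 B cell markers, 16 genes of antigen presentation and 33 chemokines and cytokines. The largest of the last group, Ccl8, read 183, 154 and 463 at day 0 and 459, 536 and 720 at day 7, and the groups overlapped. The part of these cells in the matrix result was not tested.

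The interferon response had a median of -0.08 over 27 genes. On the first day 0 array the list stood at 0.76, against -0.40 and -0.37 on the other two. Without that array the median was 0.34 and all 27 were above 0, compared with 5 with it. Over all genes, 6549 of 14040 were above 0 without it and 6246 with it. Ifit1 shows the pattern: it read 1466, 254 and 261 at day 0 and 278, 342 and 424 at day 7. No interferon gene passed in either model, so the sign of this list rests on 1 control heart.

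No smooth muscle, endothelial, adipocyte, atrial, lung and thymus or red cell marker passed in either model. Smooth muscle markers had a median of 0.16 over 21, and their summed intensity was 31346 to 32040 at day 0 and 32830 to 34409 at day 7, with no overlap. Of the 21, 9 lay higher and 2 lower with no overlap, beside 9.28% and 11.9% of all genes. Endothelial markers had a median of 0.07 over 25, and their sum was 23471 to 24591 at day 0 and 25568 to 26095 at day 7, also without overlap. Such a sum weighs bright members most: the arrays did not overlap for only 1 of the 25 (4%, beside 21.2% of all genes). The part of these cells in the matrix result was not tested. Acta2, the smooth muscle actin that also marks myofibroblasts, read 3820, 3900 and 4376 at day 0 and 3785, 3195 and 3392 at day 7 (-0.22; adjusted p = 0.73). Adipocyte markers had a median of 0.04 over 14, atrial markers 0.12 over 14, lung and thymus markers -0.06 over 10. The 5 red cell markers tested had a median of 0.27, which was 0.05 without the first day 0 array.

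Genes of the renin-angiotensin system itself gave no call among 12 tested, with a median of 0.06. Ace, the converting enzyme, read 207, 177 and 204 at day 0 and 284, 304 and 233 at day 7 (0.45; adjusted p = 0.49). The groups were apart, but the change passed in neither model. A dimmer Ace probe set gave 0.18, with overlapping groups. Cma1, a mast cell chymase that also forms angiotensin II, lay the other way. It read 83.9, 61.2 and 60.7 at day 0 and 37.5, 48.2 and 47.4 at day 7, with no overlap (-0.48; adjusted p = 0.41 with 12 arrays and 0.092 with 6). The receptor gene Agtr1a changed by 0.09 and angiotensinogen, Agt, by 0.15, with overlapping groups. The receptor genes Agtr1b (9.60 to 12.7) and Agtr2 (5.18 to 6.71) were too dim on all heart arrays to be tested.

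Day 7 was also set against day 1. In the 12-array model 691 genes differed (4.92%), of which 393 were higher at day 7 (2.8%) and 298 lower (2.12%). With the 6 arrays of days 1 and 7 alone the count was 46. It depended on single arrays. The count was 455 and 456 without day 0 replicates 1 and 2, and 358 without day 3 replicate 2. It was 119, 36 and 137 without day 7 replicates 1, 2 and 3, and 11, 72 and 2482 without day 1 replicates 1, 2 and 3. Of the 10 genes with the largest rises at day 1, all but Myh7 lay between 0.18 and 1.50 above day 0 at day 7. These 10 were picked by their day 1 rise on the same arrays, which favours a lower value at day 7. Chil3, a chitinase-like protein of macrophages, read 2264, 3215 and 660 at day 1 and 53.6, 64.3 and 196 at day 7, beside 20.8, 27.8 and 63.0 at day 0 (day 7 minus day 1, -4.01; adjusted p = 0.0053). Ankrd2, a stretch-responsive relative of Ankrd1, was at 744, 921 and 141 at day 1 and at 37.8, 37.7 and 37.3 at day 7, beside 28.8, 31.8 and 33.6 at day 0 (-3.17; adjusted p = 0.0074). Ccl2, a monocyte attractant, stood at 3.05 above day 0 at day 1 and at -0.08 at day 7. The heat shock gene Hspa1b went from 3.26 to 0.46, and Nmrk2, a kinase of nicotinamide riboside, from 3.45 to 0.58. These changes share the day 0 arrays.

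Other genes, picked by their rise from day 1 to day 7 on the same arrays, moved the opposite way between these days. Aspn was at -1.18 at day 1 and 1.22 at day 7, a difference of 2.40 (adjusted p = 0.0072). Mfap4 went from -0.72 to 1.19, a difference of 1.91 (adjusted p = 0.0061), and Itgbl1 from -0.63 to 1.15, a difference of 1.78 (adjusted p = 0.021). Itih5, which stabilises hyaluronan, was at -1.66 at day 1 and at 0.31 at day 7, with a difference of 1.98 (adjusted p = 0.0045). Between day 3 and day 7 no gene passed in the 12-array limma model, with 983 at an unadjusted p under 0.05. Omitting replicate 1 of day 3 gave 63 calls, omitting replicate 2 of day 1 gave 3, and omitting replicate 1 of day 7 gave 4. The smallest unadjusted p was that of Pdia6, a chaperone of the endoplasmic reticulum, which was 0.94 lower at day 7 than at day 3 (-0.94; adjusted p = 0.24).

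**Figure D4:**
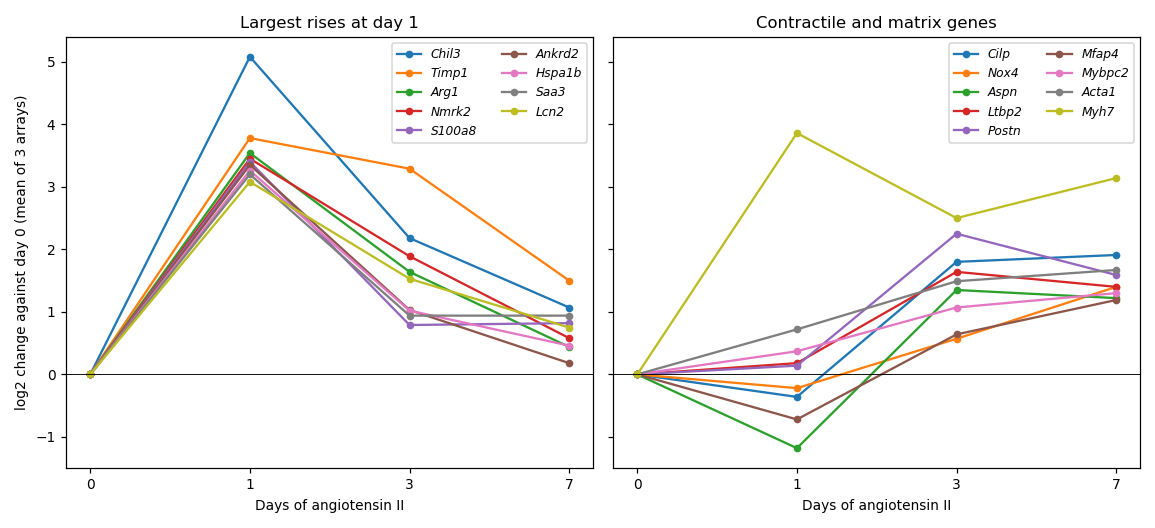
Mean log2 change against day 0 (3 arrays per day, no errors drawn, equal spacing of days) over days of angiotensin II for 9 of the 10 genes with the largest rises at day 1 (left) and for 9 contractile and matrix genes (right), which include the tenth, Myh7. The left genes were picked by their rise at day 1, which favours a peak there, and they lie between 0.18 and 1.50 at day 7. On the right, Cilp, Nox4, Aspn and Mfap4 are below 0 at day 1 and above 1 at day 7.

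The same comparison in other organs had 2 arrays per group in kidney and brain, and 1 per group in vessel. No gene passed for day 7 against day 0 in kidney (950 of 14214 at an unadjusted p under 0.05) or in brain (1006 of 14113), with limma. The difference between the heart and kidney responses, tested in a model of 26 arrays, was past the threshold for 4 of 14715 genes (0.0272%): Acta1, Mybpc2, Ano10 and Cyp4a14. The last, a fatty acid hydroxylase, differed by 1.36 between days in kidney and by -0.04 in heart. Acta1 read 36.4 and 34.0 in kidney at day 0 and 34.2 and 28.4 at day 7. Ano10 read 158 and 133 in kidney at day 0 and 151 and 129 at day 7. This count was 0 without kidney day 0 replicate 1 and 0 without kidney day 7 replicate 1. The difference between heart and brain was past the threshold for 50 of 14959 genes (0.334%), among them Acta1, Ankrd1, Mybpc2 and Ano10. The change between days was larger in size in heart than in brain for 8 of the 50. For 38 of the 50 the heart change minus the brain change was below 0, which says nothing of the levels. For the peptide hormone genes Pmch and Oxt the difference between days was 5.73 and 2.48 in brain and 0.01 and 0.03 in heart. Ankrd1 read 9.38 to 12.8 in brain at days 0 and 7, too dim to be tested there. That count ranged with single arrays. It was 32 and 30 without heart day 0 replicates 1 and 2, and 31 without heart day 7 replicate 3. It was 985 without brain day 0 replicate 2, and 139 and 25 without brain day 7 replicates 1 and 2. Myh7 and Cilp, whose own changes were among the largest in heart, did not pass either difference (adjusted p = 0.078 and 0.85 against kidney, 0.082 and 0.24 against brain). Depp1 read 156 and 159 in kidney at day 0 and 211 and 437 at day 7, a change of 0.89 that did not pass (adjusted p = 0.78). In the single vessel arrays Cilp read 249 at day 0, 280 at day 1, 732 at day 3 and 1044 at day 7, and Ano10 read 251 at day 0 and 219 at day 7. These vessel values have no replicate.

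**Figure D5:**
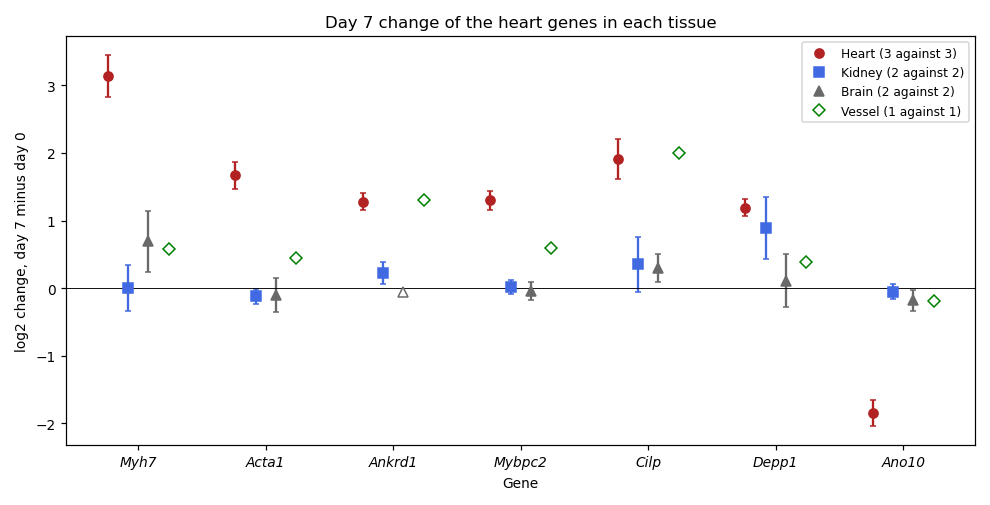
Day 7 minus day 0 change (log2) of the 7 genes in heart, kidney, brain and vessel; bars are standard errors from the fit within each tissue, and open markers have no error (single vessel arrays, and Ankrd1 in brain, where it was too dim to be tested). Ano10 stands near 0 in kidney, brain and vessel, and at -1.85 in heart. In the vessel arrays Cilp is at 2.00 and Ankrd1 at 1.30.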

How the data were processed

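The authors deposited linear signal intensity values. Per the submitters' processing notes the software was Affymetrix Expression Console. Its algorithm, version and normalization setting are not given in the labels or notes used. The deposited intensities ran from 3.18 to 22424 over 45101 probe sets of 30 arrays. Control probe sets (64) were left out. Of the rest, 34945 had 1 gene symbol in the platform annotation, 932 had several and 9160 none, and genes were named only from the first kind. Where a gene had several probe sets (9010 of 18193 genes), the one brightest on average across the 30 arrays was read. Log2(intensity + 16) was fitted with limma 3.58.1 (lmFit and eBayes) in R 4.3.3, with group means as the only terms. Groups came from the sample titles. All 12 heart arrays formed the model reported first, and the 6 arrays compared were an alternative. Other alternatives changed the pseudocount (1, 64), filter, probe set rule, normalization, variance prior and replicate block, or left out 1 array; tissue differences used 26 arrays. The fit was tested on simulated data.

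Named genes were those past the threshold, those up to 0.10, the 15 largest changes each way with the 6 arrays, the leading members of each of 35 gene lists (785 of 853 members on the array, 730 tested), the 10 largest rises and falls at day 1, the leading day 7 against day 1 and day 3 differences, and natriuretic peptide, myosin and angiotensin genes. Members and lists were chosen with earlier results of these data known. Upstream sequences are from RefSeq (GRCm38.p6).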

Additional observations from a re-analysis of the deposited data

Results flagged for a closer look

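The limma test of the difference in response between organs was past the threshold for 8 values of genes named above, each on 3 heart arrays and 2 kidney or brain arrays per day. Acta1, the skeletal actin, responded 1.79 ± 0.30 more in heart than in kidney (adjusted p = 0.04) and 1.77 ± 0.30 more than in brain (adjusted p = 0.0078). Mybpc2, the fast myosin-binding protein C, responded 1.28 ± 0.19 more in heart than in kidney (adjusted p = 0.012) and 1.34 ± 0.19 more than in brain (adjusted p = 0.0018). For Ankrd1 the value against brain was 1.34 ± 0.20 (adjusted p = 0.0024). Ano10 fell further in heart, with a difference of -1.80 ± 0.27 against kidney (adjusted p = 0.012) and -1.68 ± 0.27 against brain (adjusted p = 0.004). The difference of Tmprss13 against brain was -1.26 ± 0.25 (adjusted p = 0.027). In brain, Ankrd1 read 9.38 to 12.8 and Tmprss13 12.2 to 15.6 at days 0 and 7, below every array's median (35.2 or more), so these 2 values are set against genes near background and say nothing of a response in brain. Mybpc2 (20.6 to 27.2 in kidney, 18.9 to 25.4 in brain) was also below the array medians. Acta1 read 28.4 to 36.4 in kidney at days 0 and 7, near or below the array medians (35.2 to 37.8). Acta1, Mybpc2 and Ano10 were all lost from the differences against kidney without kidney day 0 replicate 1, kidney day 0 replicate 2 or kidney day 7 replicate 1. Over 20 alternatives Acta1 was lost in 13 (adjusted p up to 0.30), Mybpc2 in 4 (up to 0.11) and Ano10 in 3 (up to 0.10). Against brain, Acta1 (adjusted p = 0.12) and Mybpc2 (adjusted p = 0.096) were lost only with the 4 groups alone. The difference of Tmprss13 was lost in 8 of 20 alternatives. The differences of Ankrd1 and Ano10 against brain were called in all 20.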

How the results depend on the processing

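Genes called for day 7 against day 0 numbered 7 in the 12-array model, 173 with the 6 arrays alone and 21 in a joint model of heart, kidney and brain, and 6 to 23 with 1 array left out. With the 6 arrays the count was 35 to 359 with 1 left out. For day 7 against day 1 the count was 691, 46 with 6 arrays, 1135 in the joint model and 11 to 2482 with 1 left out. For day 7 against day 3 it was 0, 1 with 6 arrays, 2 in the joint model and 0 to 63 with 1 left out. Heart minus kidney gave 4, and 7 with the 4 groups alone, with the mean of all probe sets or with a pseudocount of 64, and 0 to 5 with 1 left out. Heart minus brain gave 50, 10 with the 4 groups alone, 85 with a pseudocount of 64 and 25 to 985 with 1 left out. The cause of these moves was not tested. With no filter, a 60th percentile filter, quantile normalization, another pseudocount or variance prior, or the mean of all probe sets, the day 7 count was 6 or 7.

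Same-numbered day 0 and day 7 arrays deviated together with correlations of 0.08, -0.18 and 0.15, so the numbers were not taken to pair them. With the replicate number as a block the counts were 7 for day 7 against day 0, 424 against day 1, and 217 with the 6 arrays alone (a setting chosen after seeing the data, as was leaving arrays out of the 6).

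Depp1 was lost only in the joint model (adjusted p = 0.17), and Myh7, Acta1, Ankrd1, Mybpc2 and Ano10 were called in all 23 alternatives. Signs turned for Myh6 with the mean of all probe sets (-0.07), Mx2 without day 0 replicate 1 (0.00) and Aplnr without day 7 replicate 3 (0.18), which ran from -0.25 and -0.49 with 1 array left out. Genes near background have understated changes.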
